A study of Homo sapiens with 9 samples.

Results

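The 8 genes described here are named genes of renal lineage and tubule injury: PAX8, PAX2, SOX9, LCN2, HAVCR1, CD24, PROM1 and CDH6. They were matched by gene symbol in a table of 30673 genes, where 6 of the 8 have a row. PROM1, a marker of tubule progenitors, and CDH6, a cadherin of the developing tubule, have no row in the tables used and are not analysed here. SOX9, LCN2 and CD24 fell at both doses of piericidin A. PAX8 and PAX2 rose at 50 nM with the values as deposited, and neither was called when libraries were scaled to a common FPKM sum. HAVCR1 was lower in every treated library but did not pass the test.

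ACHN is a human renal cell carcinoma line that grows as an adherent layer. The cells were kept in MEM medium and given 0.1% DMSO as vehicle, 25 nM piericidin A or 50 nM piericidin A, with 3 RNA sequencing libraries in each group. Piericidin A inhibits complex I of the respiratory chain, and the series addresses how it acts on renal cell carcinoma. Whether the piericidin A cultures also held DMSO, how long the treatment lasted and whether the 3 libraries of a group came from separate cultures are not given in the sources used here, so p-values measure the spread between these libraries, which may be technical. All data come from a single cell line.

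PAX2 and PAX8 are paired box transcription factors that specify the nephron lineage, and PAX8 stays on in adult tubule cells and in most renal carcinomas. SOX9 is a transcription factor that surviving tubule cells switch on after injury. LCN2 encodes neutrophil gelatinase-associated lipocalin, a secreted protein that binds iron-loaded siderophores, and HAVCR1 encodes kidney injury molecule 1, a phosphatidylserine receptor. Both are used as markers of tubule damage. CD24 encodes a small glycoprotein anchored in the membrane by a lipid, which marks progenitor-like cells scattered along the tubule.

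The 250 bases before the RefSeq start of 4 of these genes are shown because these are the genes with a change and a window in the reference (build GRCh38.p14). LCN2 and CD24 fell, and PAX8 and PAX2 rose. Each is written 5′ to 3′ on the strand of the gene. Capitals mark matches to a motif of NF-kB factors, GGGA and CC with any 4 bases between them, or to TTNNGNAA, a motif of C/EBP factors, on either strand. Where a gene has several windows, the window nearest to the gene start in the authors' table was taken.
LCN2: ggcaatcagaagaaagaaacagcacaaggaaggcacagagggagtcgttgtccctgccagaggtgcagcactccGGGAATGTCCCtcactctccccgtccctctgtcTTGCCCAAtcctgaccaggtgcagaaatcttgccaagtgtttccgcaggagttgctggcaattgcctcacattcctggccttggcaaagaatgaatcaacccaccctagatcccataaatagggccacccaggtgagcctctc
CD24: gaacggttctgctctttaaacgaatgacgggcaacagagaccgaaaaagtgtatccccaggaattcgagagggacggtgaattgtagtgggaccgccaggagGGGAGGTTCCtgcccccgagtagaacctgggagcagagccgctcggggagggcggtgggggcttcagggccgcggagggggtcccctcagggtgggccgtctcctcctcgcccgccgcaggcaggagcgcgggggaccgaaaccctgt
PAX8: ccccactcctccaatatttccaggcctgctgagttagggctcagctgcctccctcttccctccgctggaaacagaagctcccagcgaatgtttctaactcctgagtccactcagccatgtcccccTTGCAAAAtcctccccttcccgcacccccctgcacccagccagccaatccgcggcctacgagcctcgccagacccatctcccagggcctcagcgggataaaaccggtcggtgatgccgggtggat
PAX2: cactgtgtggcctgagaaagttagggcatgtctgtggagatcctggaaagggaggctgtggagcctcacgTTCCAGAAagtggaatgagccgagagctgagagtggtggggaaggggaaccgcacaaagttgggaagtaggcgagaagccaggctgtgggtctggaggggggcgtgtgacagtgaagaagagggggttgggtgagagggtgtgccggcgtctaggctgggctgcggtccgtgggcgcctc

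The windows lie at chr9:128149203-128149452 on the plus strand for LCN2, chr6:106975628-106975877 on the minus strand for CD24, chr2:113278922-113279171 on the minus strand for PAX8 and chr10:100735146-100735395 on the plus strand for PAX2. The LCN2 window holds 2 overlapping matches to the NF-kB motif, GGGAATGTCC and GGAATGTCCC, whose first bases lie 176 and 175 bases before the start, and 1 match to the C/EBP motif. The CD24 window holds 1 match to the NF-kB motif, GGGAGGTTCC, 148 bases before the start, and no match to the C/EBP motif. The PAX8 and PAX2 windows each hold 1 match to the C/EBP motif and none to the NF-kB motif. Of 35116 windows of this length in the reference, 22.6% hold the NF-kB motif and 33.2% the C/EBP motif. The RefSeq start of LCN2 lies 382 bases from the gene start in the authors' table. For CD24 the distance is 0 bases, for PAX8 29 and for PAX2 207. The reference holds 3 windows for CD24 and 2 for PAX2. The windows shown need not be the promoters that these cells use, above all for LCN2 and PAX2. SOX9, which also fell, has no window in the reference.

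The values are FPKM (fragments scaled by gene length and library size) as the authors deposited them. Comparison between genes rests on the length used, which for PAX8, 7400 bases, equals all its annotated exons. The transcripts in these cells may be shorter, so the order of genes with close values is uncertain. Whole fragments recovered from FPKM and length, over the 18859 genes whose length is given, numbered 24365472 to 29245674 per library. The deepest of the 6 genes was PAX8, with 11784 to 17881 fragments per library, and the shallowest were LCN2, with 94 to 382, and SOX9, with 84 to 428. Libraries of a group were compared by their fragments, over those of these genes with enough fragments in the pair. Replicate 3 of the 25 nM group stood apart. It gave a chi-square of 17.2 and 19.6 for each degree of freedom against the other 25 nM libraries, which gave 2.48 between them. The 50 nM libraries gave 5.09 to 8.49 and the DMSO libraries 1.79 to 2.50, so the groups differed in spread. Summed FPKM was 249274 to 255396 in the DMSO libraries and 276520 to 310119 in the treated libraries, without overlap. Replicate 3 of 25 nM had the highest sum. Genes were tested with limma on log2(FPKM + 0.1) and called at a Benjamini-Hochberg adjusted p under 0.05 over 15541 tested genes. A fold change on this scale understates the change of low genes.

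The labelled cell type was checked against marker genes. Of 9 renal carcinoma markers, 7 averaged at least 1 FPKM in DMSO, among them VIM at 254 ± 5.81 FPKM and MET at 148 ± 1.61 FPKM (SD, n = 3 each). CA9, a marker of clear cell carcinoma, was at 0.804 FPKM there. Markers of differentiated proximal tubule were mostly low: 3 of 18 averaged at least 1 FPKM in DMSO, and LRP2, SLC22A6, SLC5A12 and SLC13A1 have no row. The 3 leukocyte markers with a row (of 5) summed to 0.0392 to 0.239 FPKM across the 9 libraries, and the 3 endothelial markers with a row (of 5) to 0.00399 to 0.0303 FPKM. The 6 fibroblast markers summed to 6.74 to 7.62 FPKM at 50 nM, against 6.50 to 7.17 FPKM in DMSO, mostly ACTA2. Of the 3 that were tested, 1 was called higher and 2 lower at 50 nM. COL1A1 rose by 0.71 on the log2 scale, while ACTA2 changed by -0.25 and PDGFRB by -0.76. The 3 podocyte markers with a row (of 5) summed to 12.4 to 14.0 FPKM at 50 nM, against 25.3 to 27.3 FPKM in DMSO, mostly SYNPO, which fell by 1.05. CLDN16, a claudin of the loop of Henle, fell to 47.4 FPKM at 50 nM, against 76.9 FPKM in DMSO, while the other 4 loop and distal markers with a row averaged under 0.1 FPKM in each group. The 10 collecting duct markers with a row (of 12) summed to 2.03 to 2.06 FPKM in DMSO and 2.27 to 2.84 FPKM at 25 nM. At 50 nM they summed to 0.889 to 3.02 FPKM, so the libraries of that group disagreed most. COL1A1, ACTA2, PDGFRB, SYNPO and CLDN16 are named after their values were seen, and the part of these markers in the results below was not tested.

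In DMSO the 6 genes covered a wide range of levels. CD24 averaged 141 ± 3.53 FPKM, HAVCR1 74.1 ± 1.76, PAX8 71.3 ± 1.26, PAX2 12.3 ± 0.372, LCN2 8.45 ± 0.409 and SOX9 3.51 ± 0.307 FPKM (SD, n = 3 each). HAVCR1 and PAX8 are neighbours in this order whose libraries overlapped, at 72.4 to 75.9 and 70.3 to 72.7 FPKM. The other neighbours did not overlap. CD24 stood above 98.5% of tested genes in DMSO and SOX9 above 46.0%. At 50 nM the order was PAX8, HAVCR1, CD24, PAX2, LCN2, SOX9, and CD24, at 56.2 to 59.9 FPKM, overlapped HAVCR1, at 56.0 to 63.2 FPKM.

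**Figure D1:**
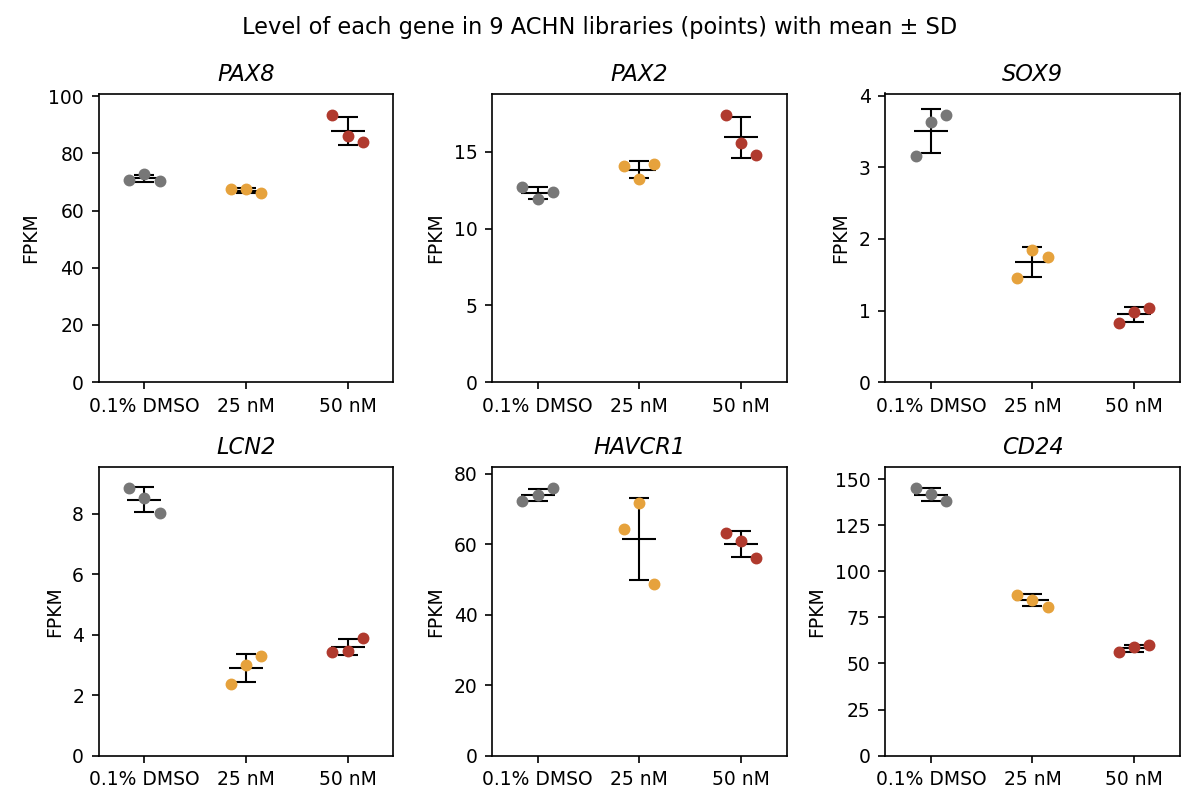
FPKM of PAX8, PAX2, SOX9, LCN2, HAVCR1 and CD24 (vertical axis, from 0) in the 3 libraries each of 0.1% DMSO, 25 nM and 50 nM piericidin A; points are libraries and bars are mean ± SD. SOX9 and CD24 step down with dose, LCN2 is low at both doses, and PAX8 is highest at 50 nM, at 84.0 to 93.5 FPKM.

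At 25 nM against DMSO, 3 of the 6 genes passed the test, 0 higher and 3 lower, while 52.0% of all tested genes passed, 26.3% higher and 25.8% lower. At 50 nM against DMSO, 5 of 6 passed, 2 higher and 3 lower, against 60.7% of all tested genes, 29.2% higher and 31.5% lower. At 50 nM against 25 nM, 4 of 6 passed, 2 higher and 2 lower, against 33.5% of all tested genes, 14.7% higher and 18.8% lower. Since so many genes changed, these counts do not set the 6 genes apart from the rest. Both doses are compared with the same 3 DMSO libraries, so their values below are given side by side. In bulk libraries, fewer cells expressing a gene and less RNA per cell cannot be told apart for any of these genes. In 6 of 6 genes the 25 nM libraries did not overlap the DMSO libraries, as in 62.6% of tested genes. The same held for 6 of 6 genes at 50 nM against DMSO, as in 70.4% of tested genes, and for 5 of 6 at 50 nM against 25 nM, as in 45.4%.

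**Figure D2:**
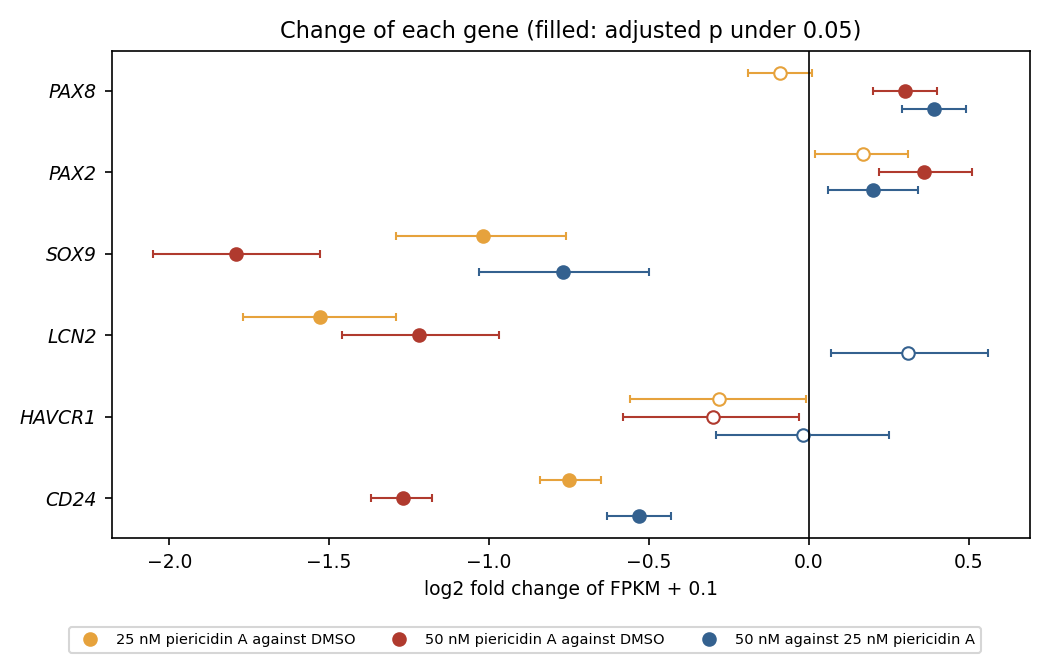
log2 fold change (horizontal axis, on the FPKM + 0.1 scale) of each gene in 3 comparisons, with the 95% interval of the limma fit as bars; filled points passed the adjusted threshold. SOX9, LCN2 and CD24 lie left of 0 at both doses, PAX8 and PAX2 lie right of 0 at 50 nM, and the HAVCR1 points are open.

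PAX8 (ENSG00000125618, chromosome 2, 113215997-113278950, minus strand) rose at 50 nM and not at 25 nM. It had 70.8, 72.7 and 70.3 FPKM in DMSO, 67.6, 67.4 and 66.0 FPKM at 25 nM and 93.5, 86.2 and 84.0 FPKM at 50 nM. All 50 nM libraries lay above, and all 25 nM libraries slightly below, the DMSO libraries. Its mean at 50 nM was 87.9 ± 4.97 FPKM, against 71.3 ± 1.26 FPKM in DMSO (log2 fold change 0.30, SE 0.04, limma adjusted p = 0.00037). At 25 nM the log2 fold change was -0.09 (SE 0.04, limma adjusted p = 0.124, 95% interval -0.19 to 0.01). The difference between doses was itself called, at a log2 fold change of 0.39 for 50 nM against 25 nM (SE 0.04, limma adjusted p = 0.000527).

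An antisense gene, PAX8-AS1, lies across part of PAX8 on the other strand and moved by far more. Its exons share 685 of the 7400 exonic bases of PAX8, or 9.26%, in GENCODE release 29. PAX8-AS1 had 0.288, 0.198 and 0.247 FPKM in DMSO, 2.50, 2.73 and 2.33 FPKM at 25 nM and 4.30, 3.37 and 3.60 FPKM at 50 nM. The 3 groups did not overlap and stepped up with dose, with no share over all tested genes given here for such a rise. Its log2 fold change against DMSO was 2.93 at 25 nM (SE 0.13, limma adjusted p = 1.15e-06) and 3.49 at 50 nM (SE 0.13, limma adjusted p = 3.86e-07). In fragments, PAX8-AS1 held 1436 to 1822 per library at 50 nM, against 87 to 128 in DMSO, while PAX8 held 16550 to 17881 at 50 nM, against 14182 to 15192 in DMSO. Whether the libraries keep strand is not given, so fragments of the shared bases may be counted to either gene, and the part of PAX8-AS1 in the value of PAX8 was not tested. PAX8-AS1 was named after its values were seen, because it overlaps PAX8.

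**Figure D3:**
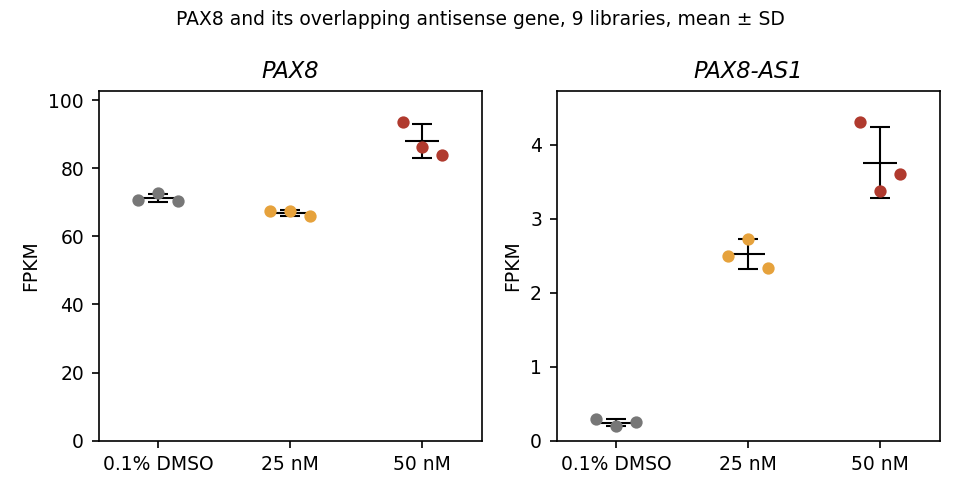
FPKM (vertical axes, each from 0) of PAX8 and of the overlapping antisense gene PAX8-AS1 in the 3 libraries of each group, with mean ± SD. PAX8-AS1 is higher at both doses, at 2.33 to 2.73 FPKM for 25 nM and 3.37 to 4.30 FPKM for 50 nM, while PAX8 is higher than in DMSO at 50 nM and not at 25 nM.

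PAX2 (ENSG00000075891, chromosome 10, 100735603-100829941, plus strand) also rose at 50 nM. It had 12.7, 11.9 and 12.4 FPKM in DMSO, 14.1, 13.2 and 14.2 FPKM at 25 nM and 17.4, 15.6 and 14.8 FPKM at 50 nM. The 3 groups did not overlap and were ordered by dose, but the share of tested genes that rose in this way is not given here. Non-overlap of 50 nM with DMSO alone was found in 70.4% of tested genes. The mean was 15.9 ± 1.39 FPKM at 50 nM, against 12.3 ± 0.372 FPKM in DMSO (log2 fold change 0.36, SE 0.06, limma adjusted p = 0.000901). At 25 nM the log2 fold change was 0.17 and just missed the threshold (SE 0.06, limma adjusted p = 0.0519). The step from 25 to 50 nM was 0.20 (SE 0.06, limma adjusted p = 0.0377), and it was not called under 8 of 15 alternatives, with a value of 0.13 without replicate 1 of 50 nM.

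The rises of PAX8 and PAX2 depend on how libraries are scaled. Summed FPKM was higher in every treated library than in any DMSO library, so its part and that of the treatment cannot be told apart. With every library scaled to a common FPKM sum, the median of all genes moved by -0.17 at 50 nM. PAX8 then stood at 0.13 (limma adjusted p = 0.13) and PAX2 at 0.19 (limma adjusted p = 0.0599), neither called. Under the same scaling at 25 nM, where the median moved by -0.20, PAX8 was called lower, at -0.29, and PAX2 stood at -0.03. Scaled to fragment totals, both rises at 50 nM were called, at 0.37 for PAX8 and 0.43 for PAX2. The 3 injury genes described next were called lower at both doses under all 3 scalings.

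**Figure D4:**
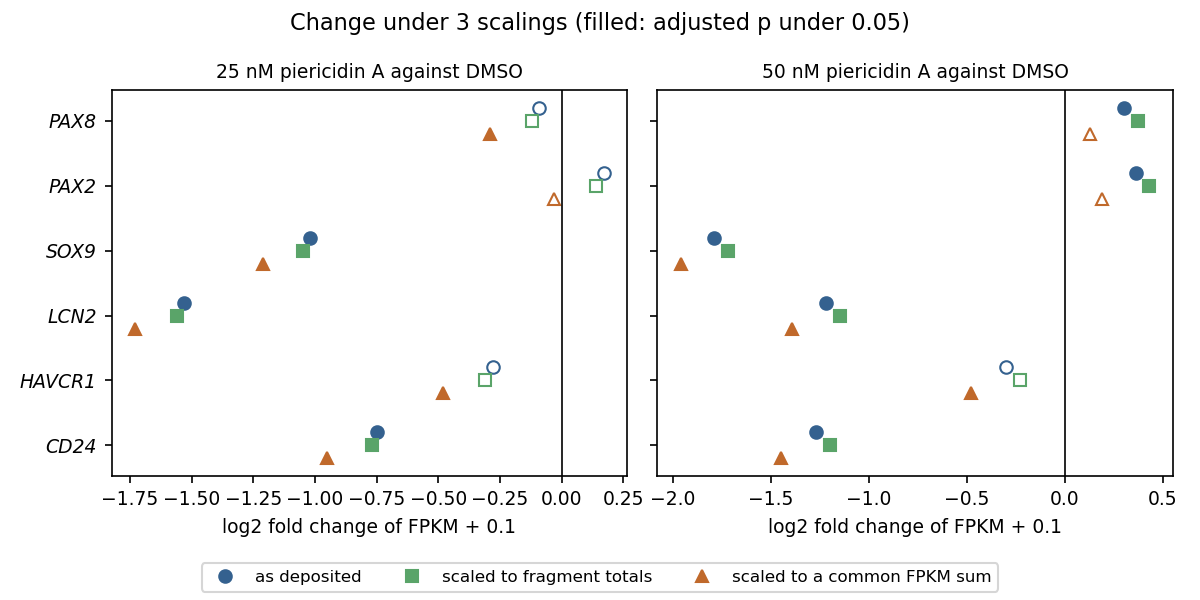
log2 fold change (horizontal axes, FPKM + 0.1 scale) of the 6 genes at 25 nM (left) and 50 nM (right) against DMSO, with libraries as deposited, scaled to fragment totals or scaled to a common FPKM sum; filled symbols passed the adjusted threshold. The common FPKM sum shifts every gene left, which leaves PAX8 and PAX2 open at 50 nM and fills HAVCR1 at both doses.

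SOX9 (ENSG00000125398, chromosome 17, 72121020-72126420, plus strand) showed the largest fall of the 6 genes at 50 nM. It had 3.15, 3.63 and 3.73 FPKM in DMSO, 1.45, 1.85 and 1.74 FPKM at 25 nM and 0.826, 0.979 and 1.03 FPKM at 50 nM. The 3 groups did not overlap and stepped down with dose. Its mean at 25 nM was 47.9% of the DMSO mean (log2 fold change -1.02, SE 0.12, limma adjusted p = 0.000139). At 50 nM it was 26.9% of the DMSO mean (log2 fold change -1.79, SE 0.12, limma adjusted p = 3.46e-06), and 5.59% of tested genes had a larger change in size. The further step from 25 to 50 nM was -0.77 (SE 0.12, limma adjusted p = 0.00166). SOX9 stood above 15.6% of tested genes at 50 nM, against 46.0% in DMSO. With a pseudocount of 1 in place of 0.1 its log2 fold change was -0.75 at 25 nM and -1.21 at 50 nM.

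CD24 (ENSG00000272398, chromosome 6, 106969831-106975627, minus strand) fell in the same stepwise way from a much higher level. It had 145, 142 and 138 FPKM in DMSO, 87.4, 84.4 and 80.9 FPKM at 25 nM and 56.2, 58.9 and 59.9 FPKM at 50 nM. The libraries within each group were close to each other and the groups did not overlap. The mean was 84.2 ± 3.25 FPKM at 25 nM, or 59.6% of DMSO (log2 fold change -0.75, SE 0.04, limma adjusted p = 4.62e-06). It was 58.3 ± 1.94 FPKM at 50 nM, or 41.3% of DMSO (log2 fold change -1.27, SE 0.04, limma adjusted p = 2.86e-07). The step from 25 to 50 nM was -0.53 (SE 0.04, limma adjusted p = 0.000198). Falling levels over the 3 groups with no overlap were found in 8.18% of tested genes, CD24 and SOX9 among them. CD24 has near-identical pseudogene copies in the genome, so its value is uncertain as far as reads were shared with them.

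LCN2 (ENSG00000148346, chromosome 9, 128149071-128153455, plus strand) fell at both doses and was not lower at the higher one. It had 8.83, 8.51 and 8.02 FPKM in DMSO, 2.38, 2.98 and 3.29 FPKM at 25 nM and 3.41, 3.45 and 3.89 FPKM at 50 nM. All 6 treated libraries lay below 4 FPKM and all DMSO libraries above 8 FPKM, and every 50 nM library lay above every 25 nM library. Its mean at 25 nM was 34.1% of DMSO (log2 fold change -1.53, SE 0.11, limma adjusted p = 1.15e-05), and 3.26% of tested genes had a larger change. At 50 nM it was 42.4% of DMSO (log2 fold change -1.22, SE 0.11, limma adjusted p = 1.79e-05). The difference of 50 nM from 25 nM was 0.31 and just missed the threshold (SE 0.11, limma adjusted p = 0.0519, 95% interval 0.07 to 0.56). It was called under 4 of 15 alternatives, among them at 0.41 with libraries scaled to fragment totals. With 1 library left out it ran from 0.19 without replicate 1 of 25 nM, where it was not called (limma adjusted p = 0.121), to 0.41 without replicate 3 of 25 nM, where it was.

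HAVCR1 (ENSG00000113249, chromosome 5, 157029413-157059119, minus strand) was lower at both doses without passing the test. It had 72.4, 73.9 and 75.9 FPKM in DMSO, 64.3, 71.7 and 48.8 FPKM at 25 nM and 63.2, 61.0 and 56.0 FPKM at 50 nM. Every treated library lay below every DMSO library, and the spread at 25 nM, a coefficient of variation of 18.9%, came with a low value in replicate 3. At 50 nM the log2 fold change was -0.30 (SE 0.12, limma adjusted p = 0.0538, 95% interval -0.58 to -0.03). At 25 nM it was -0.28 (SE 0.12, limma adjusted p = 0.0763). Without replicate 3 of 25 nM, which also enters the shared estimate of the spread, the value at 50 nM was -0.30 again and was called (SE 0.05, limma adjusted p = 0.00119), and the value at 25 nM was -0.13 and was not. The doses differed by -0.02 (SE 0.12, limma adjusted p = 0.915, 95% interval -0.29 to 0.25). That difference was called, at -0.18, without replicate 3 of 25 nM.

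The 6 genes were also set beside genes of like length, since fold change varied with length in these libraries. The 11722 tested coding genes were ordered by length and cut into 4 groups of like size. LCN2, HAVCR1 and CD24 are in the shortest group, whose median log2 fold change was 0.19 at 25 nM and 0.08 at 50 nM. SOX9 is in the next group, with medians of 0.02 and -0.08, and PAX8 and PAX2 are in the third, with medians of -0.08 and -0.14. LCN2 and CD24 fell, and HAVCR1 was lower without a call, while the median of their group was above 0. PAX8 and PAX2 rose at 50 nM, with the values as deposited, while the median of their group was below 0. SOX9 fell at 50 nM, where the median of its group was also below 0. PAX8 at 25 nM, at -0.09, lay close to the median of its group. The part of length in these changes was not tested. The longest group holds none of the 6 genes and had medians of -0.21 at 25 nM and -0.23 at 50 nM. The gene lists below were not compared with genes of like length.

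Genes with the pattern closest to each strongly changed member were found by the root mean square difference between log2(FPKM + 0.1) profiles over the 9 libraries, after subtracting the DMSO mean, among 10704 coding genes. For CD24 these were the histone demethylase KDM3A (difference 0.048, log2 fold change -0.76 at 25 nM and -1.23 at 50 nM), the mitophagy receptor BNIP3L (0.061, with changes of -0.72 and -1.29) and the membrane protein CDCP1 (0.068, with changes of -0.68 and -1.20). For SOX9 they were the lipid droplet protein HILPDA (0.114, with changes of -0.95 and -1.80), FAM110C (0.135, with changes of -1.07 and -1.86) and EHD3 (0.176, with changes of -1.20 and -1.66). For LCN2 they were the pseudokinase TRIB1 (0.099, with changes of -1.47 and -1.23), KIAA0232 (0.150, with changes of -1.49 and -1.12) and the R-spondin receptor LGR4 (0.170, with changes of -1.42 and -1.15). All 9 of these genes were called lower at both doses. Since they were chosen for profiles close to members that fell at both doses, this is no separate result.

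Nephron transcription factors were called in both directions. A list of 34 such factors, which holds PAX8, PAX2 and SOX9, had 22 tested genes, of which 2 were called higher and 8 lower at 25 nM and 5 higher and 9 lower at 50 nM. Over all tested genes 26.3% were higher and 25.8% lower at 25 nM, and 29.2% were higher and 31.5% lower at 50 nM. The median log2 fold change of the list was -0.23 at 25 nM and -0.28 at 50 nM, against 0.02 and 0.00 over all tested genes, and the value at 25 nM was -0.12 with a pseudocount of 1. POU3F3, a POU factor of the loop of Henle and distal tubule, changed by -1.16 and BHLHE41, a basic helix-loop-helix repressor, by -1.41 at 50 nM, and both were also called lower at 25 nM. In the step from 25 to 50 nM, 3 of the list were called higher and 4 lower, against 14.7% higher and 18.8% lower over all tested genes. Scaled to a common FPKM sum, 1 was higher and 15 lower at 25 nM, and 2 were higher and 13 lower at 50 nM.

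The wider PAX, SOX, prominin and TIM families moved both ways. Of 24 genes listed, 10 were tested, with 2 higher and 3 lower at 25 nM and 5 higher and 3 lower at 50 nM, and medians of -0.02 and 0.17. Shares over all tested genes were 26.3% higher and 25.8% lower at 25 nM, and 29.2% and 31.5% at 50 nM. Their medians were 0.02 and 0.00. Between the doses, 3 were higher and 1 lower at 50 nM, against 14.7% higher and 18.8% lower over all tested genes. PAX6, the eye and pancreas paired box factor, rose by 0.64 on the log2 scale at 50 nM (SE 0.07, limma adjusted p = 4.83e-05). TIMD4, a phosphatidylserine receptor of the same family as HAVCR1, rose by 1.02 (SE 0.11, limma adjusted p = 4.9e-05), to 4.97 FPKM at 50 nM, against 2.39 FPKM in DMSO. SOX4, a SOX factor that is also raised in injured mouse tubules, fell at both doses, with log2 fold changes of -0.71 at 25 nM and -0.57 at 50 nM. Scaled to a common FPKM sum, the median of the list was -0.22 at 25 nM and 0.00 at 50 nM, with 3 higher and 4 lower at 50 nM.

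Genes of tubule injury and failed repair were called in both directions against DMSO, while those called between the doses were nearly all lower at 50 nM. Of 44 genes listed, among them 6 of the 8 genes described here and 4 of those with a row, 39 were tested. At 25 nM 18 were called higher and 12 lower, with a median of 0.16, and at 50 nM 12 were higher and 15 lower, with a median of -0.10. Over all tested genes 26.3% were higher and 25.8% lower at 25 nM, and 29.2% were higher and 31.5% lower at 50 nM. The count higher at 50 nM was 7 without replicate 2 of 50 nM and 7 without replicate 2 of DMSO. At 50 nM against 25 nM, 1 was called higher and 21 lower, with a median of -0.21. Over all tested genes 14.7% were higher and 18.8% lower in that step, with a median of -0.01. The step had 3 higher and 21 lower with a common FPKM sum, and 3 higher and 17 lower with fragment totals. SOX9, LCN2 and CD24 were the 3 largest falls of the list at 50 nM. The complement component C3 fell to 115 FPKM at 50 nM, against 217 FPKM in DMSO (log2 fold change -0.92, SE 0.04, limma adjusted p = 6.79e-07). The chemokine CCL2 rose to 52.4 FPKM at 50 nM, against 29.5 FPKM in DMSO (log2 fold change 0.82, SE 0.06, limma adjusted p = 5.25e-06), and its change at 25 nM was 1.09. With libraries scaled to a common FPKM sum the list had 10 genes higher and 16 lower at 25 nM, with a median of -0.04, and 5 higher and 24 lower at 50 nM.

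**Figure D5:**
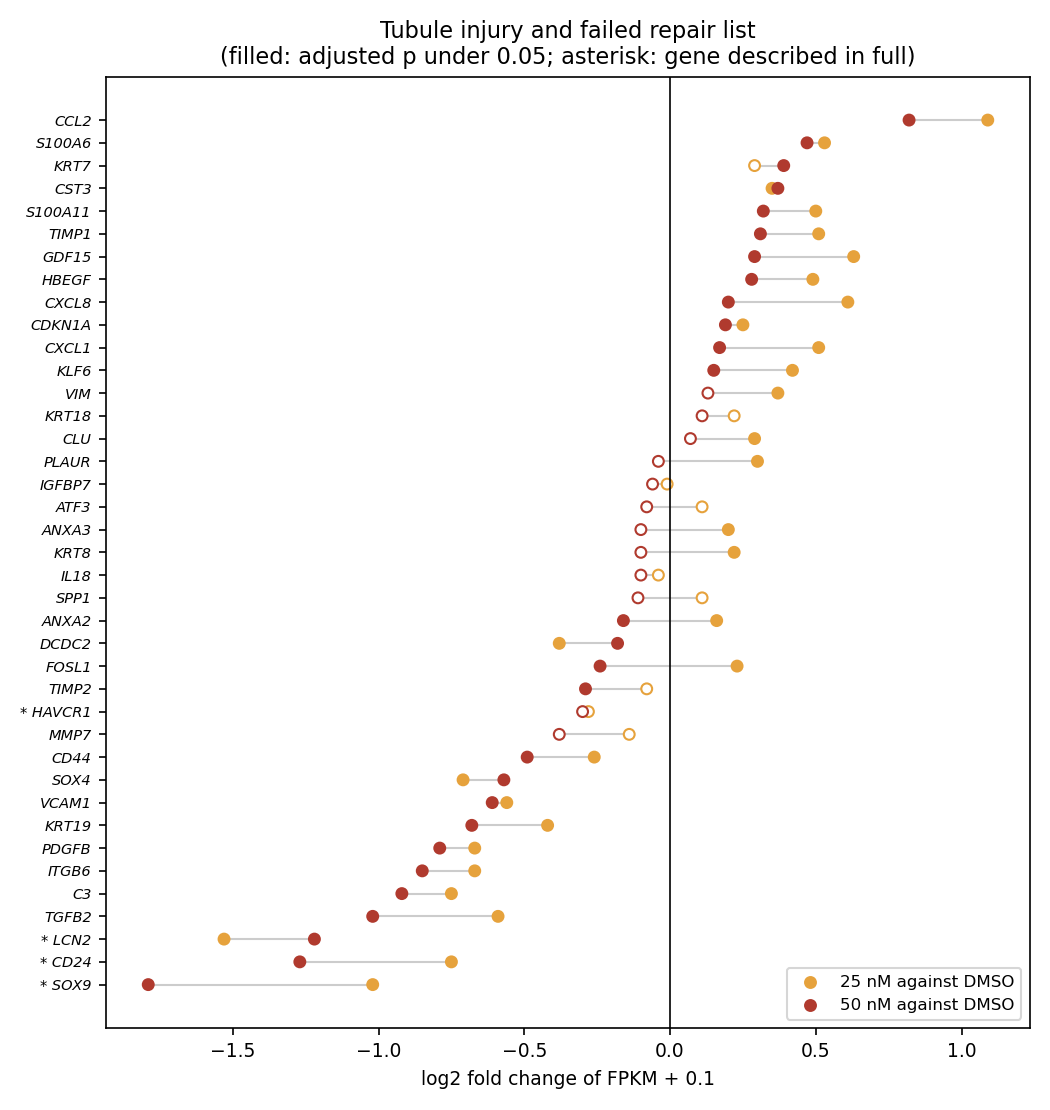
log2 fold change (horizontal axis, FPKM + 0.1 scale) at 25 nM and 50 nM against DMSO of the 39 tested genes of the tubule injury and failed repair list, 1 gene per row, ordered by the value at 50 nM; filled points passed the adjusted threshold. SOX9, CD24 and LCN2 lie at the bottom, and CCL2 lies at the top with changes of 1.09 and 0.82.

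Among 12 genes of tubule progenitors and scattered tubular cells, which include CD24, 9 were tested. At 25 nM 3 were higher and 4 lower, and at 50 nM 2 were higher and 4 lower, with medians of 0.05 and -0.10. All tested genes had 26.3% higher and 25.8% lower at 25 nM, and 29.2% and 31.5% at 50 nM. Their medians were 0.02 and 0.00. The step from 25 to 50 nM had 1 higher and 5 lower, against 14.7% higher and 18.8% lower over all tested genes. Scaled to a common FPKM sum, the median of the list at 25 nM was -0.15. The adhesion molecule VCAM1 changed by -0.56 at 25 nM and -0.61 at 50 nM, and the keratin KRT19 by -0.42 and -0.68, all called. The calcium-binding protein S100A6 rose by 0.53 at 25 nM and by 0.47 at 50 nM.

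Cadherins, the family that CDH6 belongs to, were listed together with their catenins, which are not cadherins. Of this list, 7 of 10 tested genes were called lower at 25 nM and 9 of 10 at 50 nM, with 0 called higher at either dose. Over all tested genes 25.8% were lower at 25 nM and 31.5% at 50 nM. The median log2 fold change of the list was -0.26 at 25 nM and -0.46 at 50 nM, against 0.02 and 0.00 over all tested genes, and the list has 14 genes in all. With a common FPKM sum these medians were -0.45 and -0.64. Between the doses, 1 was higher and 7 lower at 50 nM, while 14.7% of all tested genes were higher and 18.8% lower. The count lower was 4 with fragment totals and 5 with a common FPKM sum. CDH1, the epithelial cadherin, had log2 fold changes of -1.60 at 25 nM and -1.67 at 50 nM, at 1.03 FPKM for 50 nM against 3.50 FPKM in DMSO. CDH2, the cadherin of proximal tubule cells, changed by -0.26 and -0.51, CDH4, the retinal cadherin, by -0.42 and -0.66, and the junction plakoglobin JUP by -0.58 and -0.95. All of these were called.

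Genes that act with the injury proteins moved in both directions. Of 20 such genes 13 were tested, with 5 higher and 5 lower at 25 nM and 5 higher and 5 lower at 50 nM, and medians of -0.05 and 0.01. Shares over all tested genes were 26.3% higher and 25.8% lower at 25 nM, and 29.2% and 31.5% at 50 nM. Their medians were 0.02 and 0.00. Between the doses, 3 were higher and 3 lower at 50 nM, against 14.7% higher and 18.8% lower over all tested genes. The median of the list at 50 nM was -0.16 with a common FPKM sum and 0.08 with fragment totals. NFKBIA, the inhibitor that NF-kB itself induces, rose to 163 FPKM at 50 nM, against 105 FPKM in DMSO (log2 fold change 0.64, SE 0.05, limma adjusted p = 6.16e-06). CEBPB, a C/EBP factor, rose by 0.45 at 50 nM. ADAM10, a membrane protease that cleaves cell surface proteins, changed by -0.48 at 25 nM and by -0.71 at 50 nM, and STAT3, a factor of interleukin 6 signalling, by -0.13 and -0.29, all called lower.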

How the data were processed

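RNA of 9 ACHN libraries in 3 groups of 3 was sequenced. The authors deposited FPKM for 30673 genes in one table. A smaller deposited table of 18859 genes holds log2 FPKM, which matches the first within 0.005. The submitters' processing notes name the build hg38. Aligner, counter and strandedness are not given in the sources used here.

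Differences were tested with limma 3.58.1 in R 4.3.3 (trend and robust) on log2(FPKM + 0.1), over all 9 libraries with group as covariate, for the 15541 genes that reached 0.5 FPKM in 3 or more libraries. P-values were adjusted by Benjamini-Hochberg over these genes. FPKM times length was a whole multiple of 1 step per library in 100% of values, within 0.01 of a fragment, or that share of each 100 fragments for higher values, which gave the fragment totals. The fit was tested on simulated data. Groups come from the sample titles. Named are the 8 members, from each list up to 4 called genes with the smallest p at 50 nM and 1 of the other direction, and the 3 nearest patterns. A gene that this rule names is not reported here. Members and lists were chosen with earlier results of these data known. Alternatives varied the pseudocount, filter, scaling, variance model, samples and replicate block, and left out each replicate.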

Additional observations from a re-analysis of the deposited data

Results flagged for a closer look

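The effect of the 2 doses differed, by the test of 50 nM against 25 nM itself, in 4 of the 6 genes. PAX8 was flagged at a log2 fold change of 0.39, with all 50 nM libraries above and all 25 nM libraries below the DMSO libraries. PAX2 was flagged at 0.20, higher in 3 of 3 libraries at 50 nM than in any at 25 nM. SOX9 was flagged at -0.77 and CD24 at -0.53, both lower in 3 of 3 libraries at 50 nM than in any at 25 nM. For comparison, 33.5% of all tested genes passed that test.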

How the results depend on the processing

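SOX9, LCN2 and CD24 kept their direction and their call at both doses under all alternatives run, and PAX8 and PAX2 at 50 nM under all but the common FPKM sum. That scaling raised the members called at 25 nM to 5, with PAX8 and HAVCR1 (-0.48) now lower, and turned PAX2 there to -0.03. It also moved the share of calls that were higher to 26.0% from 50.5% at 25 nM and to 32.1% from 48.1% at 50 nM, and fragment totals moved it to 69.9% from 44.0% at 50 nM against 25 nM. The difference of HAVCR1 between doses, -0.02, was 0.01 with the common FPKM sum and 0.08 with fragment totals, and ran from -0.18 to 0.10 with 1 library left out. Leaving out 1 library gave 3 to 5 members called at 25 nM, 5 at the most without replicate 2 of 25 nM, and 3 to 6 at 50 nM against 25 nM. Genes called at 50 nM against 25 nM numbered 5205, and from 3441 without replicate 1 of 50 nM to 5829 without replicate 3 of 25 nM. The fit without replicate 3 of 25 nM at 50 nM against DMSO was chosen after seeing the data and called 6 members. Same-numbered libraries of different groups had correlations of -0.047 to 0.079, and 3 of 9 libraries correlated best with their own number. These values show no strong effect shared by replicate number, but cannot tell whether the samples were paired. With the replicate block, 7640 genes were called at 25 nM, 9107 at 50 nM and 4587 at 50 nM against 25 nM, PAX2 was called at 25 nM (0.17, limma adjusted p = 0.0434) and HAVCR1 at 50 nM (-0.30, limma adjusted p = 0.0412). The cause of these shifts was not tested. Without replicate 1 of 50 nM, 1 progenitor gene was higher against DMSO, in place of 2, as also without replicate 2 of 50 nM, 2 of DMSO or 3 of DMSO. Without the same library, 3 progenitor genes were lower against 25 nM, in place of 5, and 1 partner gene was higher, in place of 3. Other list counts that moved by over 1.5 times were partners higher at 25 nM (3 in place of 5 without replicate 2 of DMSO), the PAX and SOX families higher at 25 nM (1 in place of 2 without replicate 1 of 25 nM or of DMSO) and, against 25 nM without its replicate 3, injury genes higher (3 in place of 1) and those families lower (2 in place of 1). The 1 cadherin higher against 25 nM was called in the fit without replicate 3 of 25 nM and in no other that left out a library. LCN2 (94 to 382 fragments per library) and SOX9 (84 to 428) have the thinnest depth of the 6 genes.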
